A study of Mus musculus with 15 samples.

Results

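The UDP-glucuronosyltransferases (Ugt), glutathione S-transferases (Gst) and sulfotransferases (Sult) are the conjugating enzymes of detoxification. Their genes were measured by total RNA sequencing of mouse colon, and every symbol of the deposited log2 counts-per-million (CPM) table that starts with Ugt, with Gst and a class letter, or with Sult, followed by a number, was taken. This gave 37 of 17531 genes. They comprised 19 Gst genes, of which 7 were mu class, 3 alpha, 3 theta, 2 omega, 2 pi, 1 kappa and 1 zeta. A further 10 were Ugt genes (6 Ugt1a, 3 Ugt2b and 1 Ugt3a) and 8 were Sult genes (4 Sult1, 2 Sult2, 1 Sult4 and 1 Sult6). All 37 were among the 17477 genes tested. Another 34 symbols of these families were in the count table only; 20 of them had 0 counts in every library and none exceeded 26 counts in a library.

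The study compared 3 genotypes of the telomerase reverse transcriptase gene Tert, with and without experimental colitis from dextran sulfate sodium (DSS), which damages the lining of the colon. WT mice carry intact alleles (TERT+/+), VAA mice carry an enzymatically inactive TERT, and KO mice lack the gene (TERT-/-). Mice of 8 to 12 weeks drank water with 3% dextran sulfate sodium for 4 days and plain water for another 4 days, and colon was taken on day 8. Each genotype had 2 untreated and 3 DSS libraries, 15 in all, and the labels do not say that each came from a separate animal, so p-values measure the spread between libraries. The labels name colon tissue with no sorting of cells, so each value is an average over epithelium, muscle, stroma and blood cells. They name no Cre and no tissue-specific promoter for either Tert allele, and the age range is given for the mice as a whole.

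Conjugating enzymes attach a polar group to drugs, plant phenols, hormones, bilirubin or lipid peroxidation products, so that these can be carried out of the cell. UGTs use UDP-glucuronic acid, GSTs use glutathione and SULTs use the sulfate donor PAPS. In the colon they are made largely by the surface epithelium, which faces the luminal contents, and several Gst genes are known targets of the oxidant-sensing factor NRF2.

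Members of the GST classes are close copies, and the first 60 coding bases (GENCODE vM21 transcripts) show how close for the alpha, mu and pi classes. Capitals mark bases that differ from the first gene of each set. These sets are shown because the reads of such genes can be assigned to the wrong copy, which matters most for Gsta1.
Gsta1: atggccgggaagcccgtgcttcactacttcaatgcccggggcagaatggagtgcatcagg
Gm3776: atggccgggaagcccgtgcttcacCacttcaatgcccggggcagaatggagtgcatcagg
Gsta2: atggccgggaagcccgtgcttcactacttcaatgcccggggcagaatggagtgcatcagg
Gsta3: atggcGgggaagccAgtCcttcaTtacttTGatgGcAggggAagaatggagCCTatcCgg
Gsta4: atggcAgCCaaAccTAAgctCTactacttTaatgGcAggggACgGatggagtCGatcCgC

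Gsta1 lies at chr9:78230656-78242684 (+ strand, mm10), and 92.9% of its 31-base words also occur in another gene. The gene Gm3776 holds 80.3% of them and has 99.7% identical coding sequence, and Gsta2 holds 56.6%. Gm3776 was not analysed here, and Gsta2 had 0 to 2 counts in every library. Values for Gsta1 may therefore hold reads of its near copies. Gsta3 (chr1:21240589-21265661, + strand) and Gsta4 (chr9:78182774-78209349, + strand) share 2.7% and 0.0% of their words with other genes.
Gstm1: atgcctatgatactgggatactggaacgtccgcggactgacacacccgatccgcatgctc
Gstm2: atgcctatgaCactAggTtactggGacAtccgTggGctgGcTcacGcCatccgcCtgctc
Gstm3: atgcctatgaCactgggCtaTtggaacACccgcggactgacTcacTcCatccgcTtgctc
Gstm4: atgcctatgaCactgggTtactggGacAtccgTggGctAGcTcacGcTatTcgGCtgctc
Gstm5: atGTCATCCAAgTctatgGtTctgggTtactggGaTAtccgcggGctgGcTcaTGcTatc
Gstm6: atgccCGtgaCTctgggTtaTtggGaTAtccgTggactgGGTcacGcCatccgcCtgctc
Gstm7: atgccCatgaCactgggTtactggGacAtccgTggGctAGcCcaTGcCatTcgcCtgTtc

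The 7 mu genes lie side by side on chromosome 3, from the start of Gstm5 at 107895821 to the end of Gstm4 at 108044894. Between 2.6% (Gstm7) and 37.7% (Gstm3) of their 31-base words were shared with another gene, so most of each transcript is distinct.
Gstp1: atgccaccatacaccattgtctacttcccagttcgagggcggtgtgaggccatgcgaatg
Gstp2: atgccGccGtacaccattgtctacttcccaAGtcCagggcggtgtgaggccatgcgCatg

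The pi pair on chromosome 19 is 98.1% identical over 630 coding bases, and Gstp1 and Gstp2 shared 38.5% and 60.3% of their words with other genes. The 6 Ugt1a genes on chromosome 1 start at separate first exons between 88095062 (Ugt1a7c) and 88211959 (Ugt1a1) and end at 88218997 to 88220002, with common last exons. They shared 53.0% (Ugt1a6a) to 84.2% (Ugt1a6b) of their words, and the coding sequences taken for Ugt1a6a and Ugt1a7c were identical over all 1593 bases. The separate values of the Ugt1a genes are therefore uncertain and are best read together, above all those of Ugt1a6a and Ugt1a7c. The Ugt2b and Sult genes shared at most 11.4% (Sult1a1).

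In untreated colon the most abundant transcript per length was Gstm1, at 153 ± 21.4 CPM per kb of transcript (SD, n = 6). Gstp1 (132 ± 17.8 CPM per kb), Gsto1 (131 ± 11.5), Sult1a1 (118 ± 15.8) and Ugt2b34 (110 ± 14.9) followed, and neighbours in this order did not differ beyond their SD. Next came the sulfotransferases Sult1d1 at 59.9 ± 6.64 and Sult1b1 at 52.2 ± 6.9 CPM per kb. Ugt1a7c, whose reads are hard to tell from those of Ugt1a6a, had the highest value of the Ugt1a symbols, at 40.0 ± 4.91 CPM per kb. The lowest per length were Gsto2 (0.512 CPM per kb) and Ugt2b1 (0.232 CPM per kb). Under DSS the order was different (SD, n = 9). Gstp1 (165 ± 25.1 CPM per kb) and Gsto1 (147 ± 9.3) then stood far above Ugt2b34 (61.2 ± 21.6) and Gstm1 (55.6 ± 19.2). Sult1a1 was at 27.4 ± 17.0 CPM per kb. Gsta1 moved from place 25 of 37, at 7.64 ± 2.69 CPM per kb, to place 7, at 35.3 ± 12.7.

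The targeted gene was read first as a check of the labels. Tert had 37 and 40 counts in the untreated and 26, 36 and 23 in the DSS libraries of WT, and 25 and 15, then 29, 12 and 7, in VAA. In KO it had 1 and 1 count untreated and 0, 0 and 1 under DSS. Library totals are given with the processing. Epithelial markers summed to 9620 to 15400 CPM in every library and none of them was at 0. Of the 15 libraries 2 carried Y-linked transcripts at the level of male mice, both of them untreated (WT replicate 2 and KO replicate 2). The shallowest library, VAA DSS replicate 3, stood apart, with the highest fibroblast (3340 CPM), endothelial (298), enteric neuron and glia (185) and, among DSS libraries, smooth muscle (2430) marker sums. Several counts that rest on it are also given without it, but the DSS effects within VAA are not.

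After DSS, genes of all 3 families were lower than in untreated colon. With the 3 genotypes averaged, 22 of the 37 genes fell and 3 rose (edgeR quasi-likelihood test, Benjamini-Hochberg adjusted p under 0.05 over all genes tested), whereas 20.0% of all genes fell and 22.5% rose. The median log2 fold change of the 37 was -0.67, against 0.01 for all genes. Of the 10 Ugt genes 8 fell and 0 rose, of the 8 Sult genes 5 fell and 0 rose, and of the 19 Gst genes 9 fell and 3 rose. Without VAA DSS replicate 3, 31 of the 37 passed the test instead of 25. In whole tissue, fewer cells of a type and less RNA per cell cannot be told apart, here and in all that follows.

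**Figure D1:**
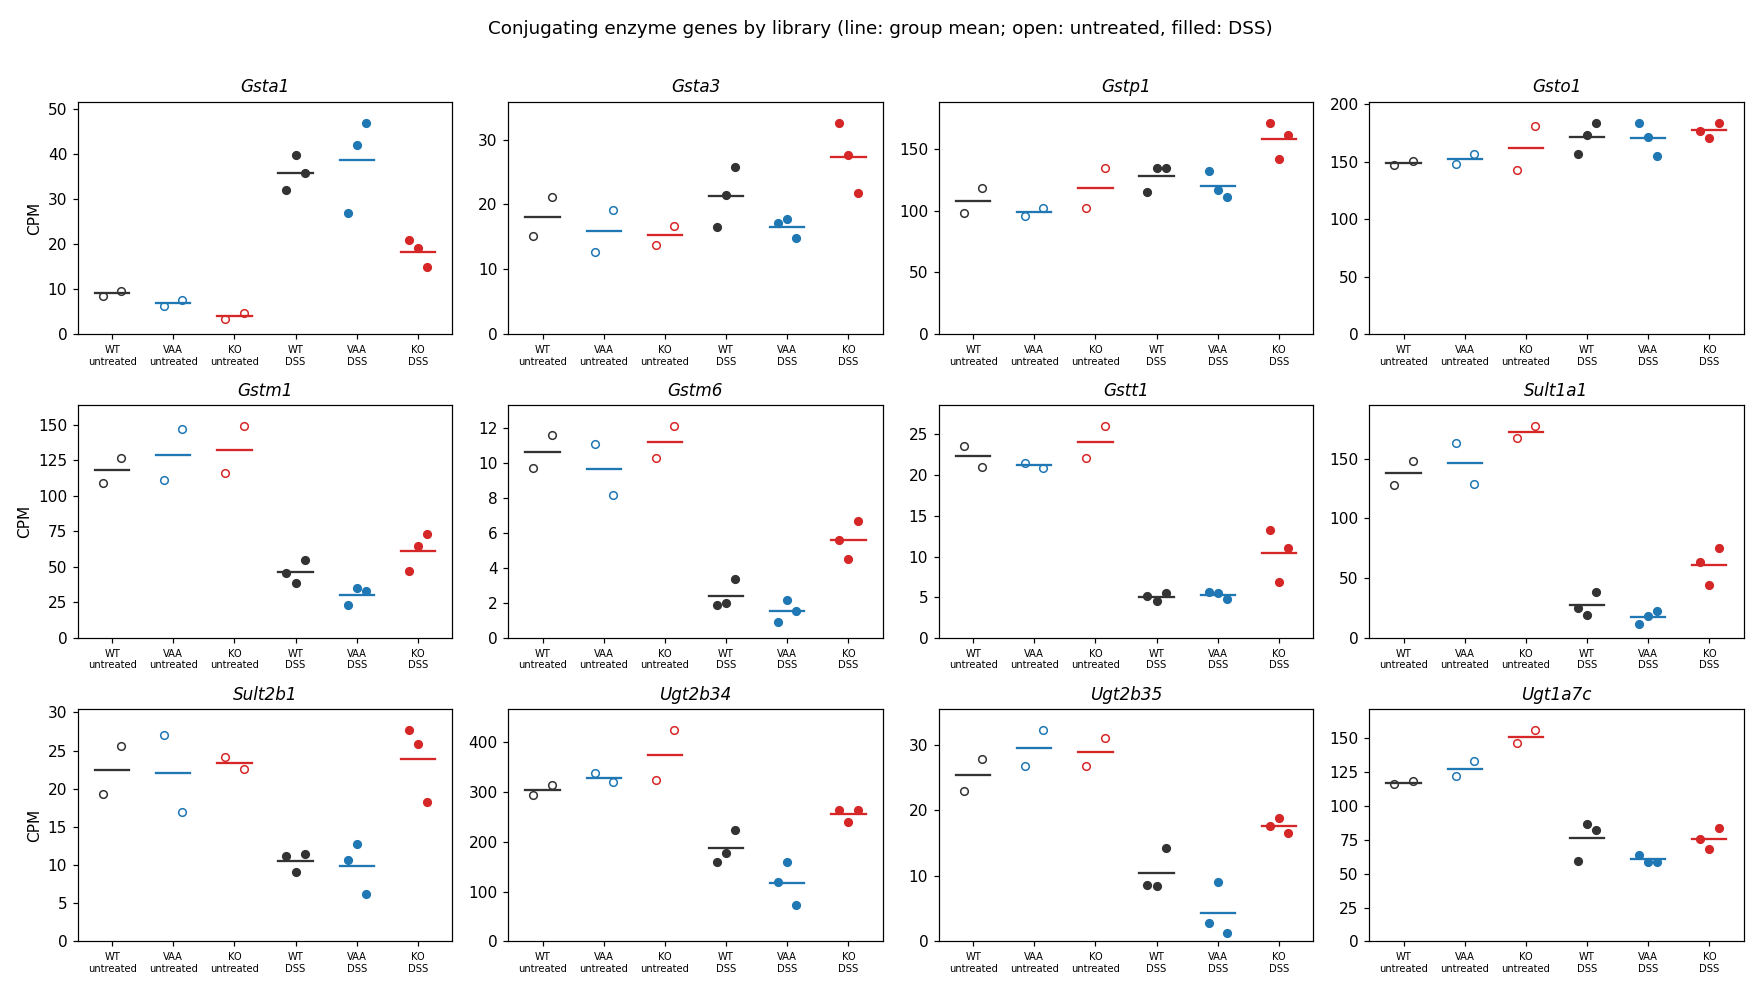
Levels of 12 conjugating enzyme genes in each library, in CPM on a linear axis that starts at 0, by genotype and treatment; open points are untreated and filled points DSS libraries, and the line is the group mean. Gsta1 is higher and Gstm1, Gstm6, Gstt1, Sult1a1 and Ugt2b35 are lower in the DSS libraries. The KO DSS libraries lie above the other DSS libraries for Gstp1, Gstm6, Gstt1, Sult1a1, Sult2b1, Ugt2b34 and Ugt2b35, and below them for Gsta1.

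Among the Gst genes the mu class fell most uniformly, with 6 of 7 lower and a median log2 fold change of -1.51. Gstm1, the most abundant mu-class enzyme, stood at 109 and 127 CPM in untreated WT, 111 and 147 in VAA and 116 and 149 in KO. Under DSS it stood at 45.7, 38.5 and 55.0 CPM in WT, 22.8, 35.4 and 32.9 in VAA, and 46.8, 64.4 and 73.0 in KO. Every DSS library was below every untreated library, and Gstm1 fell 2.85-fold (log2 fold change -1.51 ± 0.13 SE, edgeR, Benjamini-Hochberg adjusted p = 1.5e-06).

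Gstm3 went from 17.7 to 28.0 CPM over the 6 untreated libraries to 4.52, 5.21 and 7.02 in WT, 2.35, 4.56 and 1.06 in VAA, and 10.1, 9.62 and 11.6 in KO. This was a 4.27-fold fall with no overlap (log2 fold change -2.09 ± 0.21, edgeR, Benjamini-Hochberg adjusted p = 5.4e-06). The adjacent Gstm6 fell 3.81-fold (-1.93 ± 0.19), Gstm7 3.01-fold (-1.59 ± 0.16), and Gstm2 by 1.13 ± 0.11 on the log2 scale. Gstm4 fell by 0.67 ± 0.13. The mu gene at the end of the cluster that is read in the opposite direction, Gstm5, had a log2 fold change of -0.19 ± 0.10 and did not pass (edgeR, Benjamini-Hochberg adjusted p = 0.16).

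Theta-class enzymes act on small halogenated substrates. Gstt1 stood at 23.6 and 21.0 CPM in untreated WT, 21.5 and 20.9 in VAA and 22.1 and 26.0 in KO, and at 5.18, 4.52 and 5.54 in WT, 5.59, 5.55 and 4.80 in VAA and 13.2, 6.82 and 11.1 in KO under DSS. The treated and untreated libraries did not overlap, and Gstt1 fell 3.43-fold (log2 fold change -1.78 ± 0.13, edgeR, Benjamini-Hochberg adjusted p = 4.1e-07). Its neighbours on chromosome 10 moved less. Gstt3 fell by 0.38 ± 0.09 on the log2 scale, and Gstt2 had a log2 fold change of -0.16 ± 0.09 (edgeR, Benjamini-Hochberg adjusted p = 0.16). Gstz1, the maleylacetoacetate isomerase of tyrosine breakdown, fell by 0.30 ± 0.11, a call lost in most fits with 1 library omitted. The organelle enzyme Gstk1 (-0.24 ± 0.10) did not pass.

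The alpha class went the other way. Gsta1 stood at 8.40 and 9.69 CPM in untreated WT, 6.36 and 7.58 in VAA and 3.43 and 4.64 in KO. Under DSS it stood at 31.9, 39.8 and 35.8 CPM in WT, 26.8, 42.0 and 46.9 in VAA, and 20.8, 19.2 and 14.9 in KO. Every DSS library was above every untreated one, and the KO libraries were lowest within each treatment. Gsta1 rose 4.63-fold (log2 fold change 2.21 ± 0.15, edgeR, Benjamini-Hochberg adjusted p = 2.1e-07), the largest rise of the 37. The symbol Gm10639, a neighbouring gene outside the family symbols, went from 7 to 25 counts untreated to 30 to 120 under DSS.

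Gsta3 stood at 12.7 to 21.1 CPM over the untreated and 14.8 to 32.6 CPM over the DSS libraries, which overlap. It passed narrowly (log2 fold change 0.38 ± 0.14, edgeR, Benjamini-Hochberg adjusted p = 0.0455) and lost the call under 12 of 22 alternative settings. Gsta4, which conjugates the lipid peroxidation product 4-hydroxynonenal, had a log2 fold change of 0.34 ± 0.13 and did not pass (edgeR, Benjamini-Hochberg adjusted p = 0.0509).

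Gstp1, the pi-class enzyme, rose 1.24-fold (log2 fold change 0.32 ± 0.08, edgeR, Benjamini-Hochberg adjusted p = 0.0084). Its untreated libraries spanned 96.0 to 134 CPM and its DSS libraries 111 to 171, with overlap. Gstp2 was at 0.27 ± 0.16 (log2) and did not pass. Gsto1, an omega-class enzyme that reduces dehydroascorbate, kept to 143 to 181 CPM untreated and 155 to 184 CPM under DSS (log2 fold change 0.17 ± 0.07, edgeR, Benjamini-Hochberg adjusted p = 0.073). Gsto2, at under 1.4 CPM in every library, did not pass (-0.84 ± 0.45).

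The 250 bases before the start of the 2 alpha genes that rose are shown (RefSeq, GRCm38.p6). Capitals mark the only match in these 2 windows, on either strand, to the core of the antioxidant response element bound by NRF2, TGACNNNGC. It begins 121 bases before the Gsta3 start. The Gsta1 window is chr9:78230419-78230668 (+ strand) and the Gsta3 window chr1:21240335-21240584 (+ strand).
Gsta1: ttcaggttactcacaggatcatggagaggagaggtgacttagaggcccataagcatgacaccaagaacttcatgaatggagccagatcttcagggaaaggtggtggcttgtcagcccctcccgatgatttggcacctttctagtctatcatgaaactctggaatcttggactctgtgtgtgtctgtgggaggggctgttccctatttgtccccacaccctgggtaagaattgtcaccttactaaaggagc
Gsta3: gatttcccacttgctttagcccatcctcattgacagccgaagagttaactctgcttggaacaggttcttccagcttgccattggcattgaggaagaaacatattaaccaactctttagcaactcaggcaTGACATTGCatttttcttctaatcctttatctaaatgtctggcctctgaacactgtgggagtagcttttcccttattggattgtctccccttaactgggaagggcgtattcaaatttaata

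Of 44 windows of the members, which covered 33 of the 37 genes, 3 held this core (6.8%), against 10.2% of 32851 windows over all genes. Besides Gsta3 these were the mu genes Gstm7, which fell, and Gstm5, which did not pass, so the core was not limited to genes that rose. The core GCGTG of the aryl hydrocarbon receptor site was in 18.2% of member windows and 28.2% of all windows, and the CDX2 core TTTATG in 9.1% and 10.8%. Both strands were searched, and a match to the first core can share its last letters GC with a match to GCGTG.

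All 4 Sult1 genes fell. Sult1a1, the main phenol sulfotransferase, stood at 128 and 148 CPM in untreated WT, 163 and 129 in VAA and 167 and 177 in KO. DSS libraries had 25.3, 18.8 and 38.2 CPM in WT, 11.5, 18.1 and 22.7 in VAA, and 63.2, 44.3 and 75.3 in KO. The treatments did not overlap, and within DSS every KO library was above every WT and VAA library. Sult1a1 fell 4.92-fold (log2 fold change -2.30 ± 0.17, edgeR, Benjamini-Hochberg adjusted p = 5.1e-07), the largest fall of the 37.

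Sult1c2 went from 15.5 to 22.4 CPM untreated to 1.25 to 8.54 CPM under DSS without overlap and fell 4.17-fold (-2.06 ± 0.25 log2). Sult1d1, which sulfates catecholamines in mice, went from 126 to 170 CPM to 39.3 to 155 CPM and fell by 0.88 ± 0.16, and Sult1b1, a sulfotransferase of thyroid hormones and phenols, fell by 0.55 ± 0.13. Both overlapped between treatments through KO libraries: Sult1d1 was at 155, 95.5 and 118 CPM in KO DSS and Sult1b1 at 158, 105 and 113 CPM. Sult2b1, which sulfates cholesterol and related sterols, fell by 0.73 ± 0.16 on average. Sult2a8, Sult4a1 and Sult6b1, all under 7 CPM, had log2 fold changes of 0.03, -0.05 and 0.27 and did not pass.

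All 3 Ugt2b and 5 of the 6 Ugt1a genes fell. Ugt2b34 stood at 294 and 314 CPM in untreated WT, 337 and 320 in VAA and 323 and 424 in KO. Under DSS it stood at 159, 177 and 224 CPM in WT, 120, 160 and 74.0 in VAA, and 264, 240 and 263 in KO. No DSS library reached the untreated range, VAA DSS replicate 3 being the lowest, and Ugt2b34 fell 1.88-fold (log2 fold change -0.91 ± 0.14, edgeR, Benjamini-Hochberg adjusted p = 0.00016).

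Ugt2b35 went from 23.0 to 32.3 CPM untreated to 8.67, 8.43 and 14.2 in WT DSS, 2.83, 9.07 and 1.25 in VAA DSS, and 17.7, 18.8 and 16.6 in KO DSS. It fell 2.95-fold (-1.56 ± 0.27 log2) with no overlap. Ugt2b1 fell by 1.35 ± 0.44 from a level of at most 1.0 CPM, a call lost in several fits with 1 library omitted. Ugt1a1, the bilirubin-conjugating enzyme, went from 11.4 to 16.1 CPM to 4.10 to 10.5 CPM and fell 2.1-fold (-1.07 ± 0.12 log2, edgeR, Benjamini-Hochberg adjusted p = 1.6e-05). Ugt1a7c went from 116 to 156 CPM to 58.8 to 86.4 CPM and fell 1.86-fold (-0.90 ± 0.08 log2, edgeR, Benjamini-Hochberg adjusted p = 3e-06). Both were without overlap. Ugt1a6b (-0.98 ± 0.20), Ugt1a5 (-0.82 ± 0.18) and Ugt1a2 (-0.59 ± 0.21) also fell, but Ugt1a2 lost the call in most fits with 1 library omitted. Neither Ugt1a6a (-0.38 ± 0.15, edgeR, Benjamini-Hochberg adjusted p = 0.0518) nor Ugt3a1 (-0.41 ± 0.22) passed. Reads of Ugt1a6a and Ugt1a7c are hard to tell apart, so the difference between these 2 is uncertain.

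**Figure D2:**
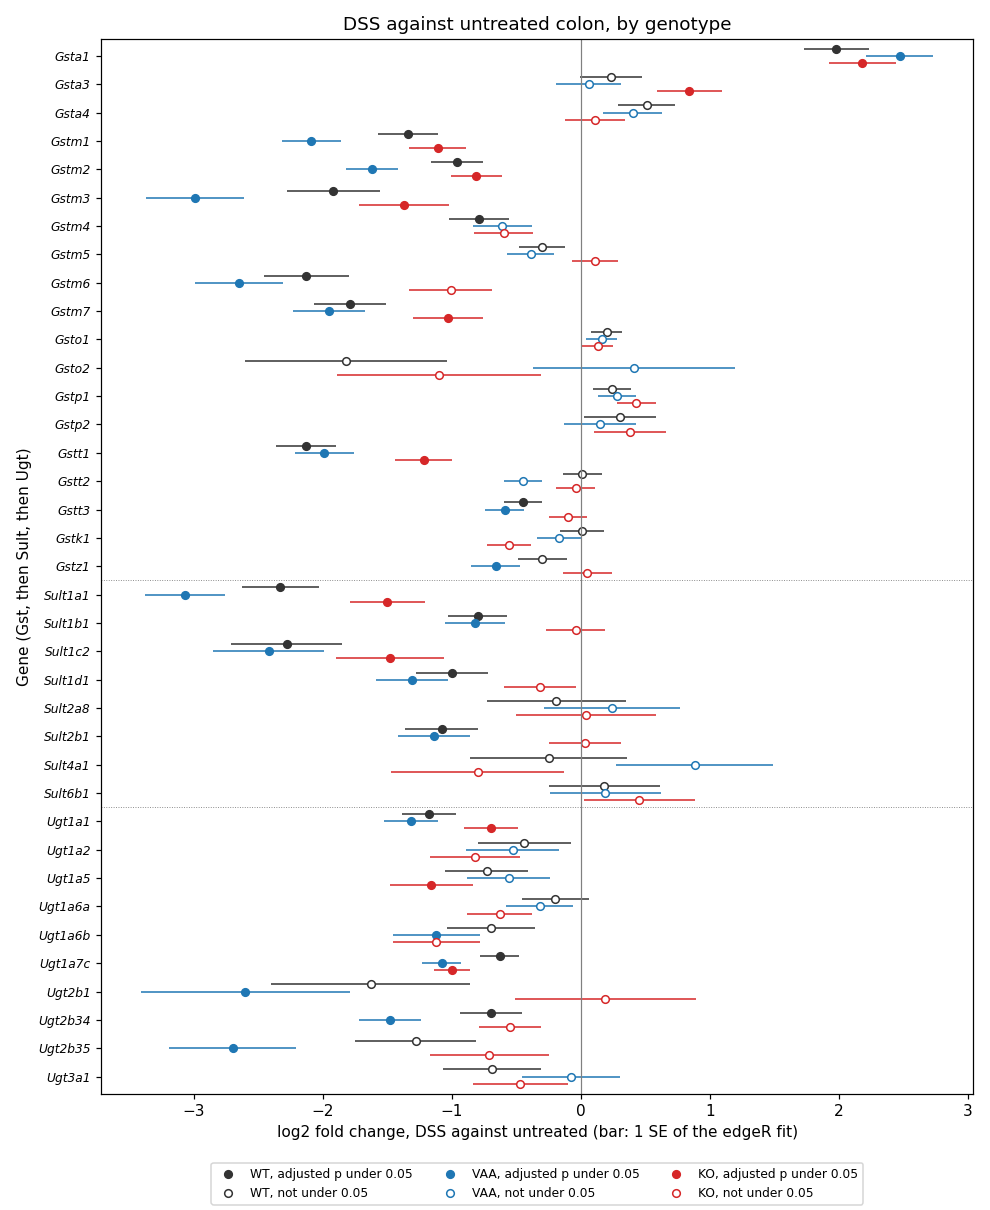
Log2 fold change of DSS against untreated for each of the 37 genes within each genotype, with a bar of 1 SE of the edgeR fit; filled points have an adjusted p under 0.05. Gsta1 lies to the right in all 3 genotypes, and the mu genes other than Gstm5, Gstt1, Sult1a1 and Sult1c2 lie to the left.

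Within single genotypes fewer genes passed. In WT 16 of 37 fell and 1 rose, against 12.5% and 14.1% of all genes. In VAA 19 fell and 1 rose, against 9.54% and 10.9%. In KO 10 fell and 2 rose, against 5.06% and 5.59%. The KO count rested on single libraries: without KO untreated replicate 1 or 2 it was 4 in all, without KO DSS replicate 1 or 2 it was 5, and without VAA DSS replicate 3 it was 17. In WT, 17 calls became 10 when WT untreated replicate 2 was omitted and 11 when WT DSS replicate 2 was. Leaving out both male libraries left 9 calls in WT and 2 in KO.

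Gsta1 rose in each of the 3 genotypes, with log2 fold changes of 1.98 ± 0.25 in WT, 2.47 ± 0.26 in VAA and 2.18 ± 0.26 in KO. Another 9 genes fell in each: Gstm1, Gstm2, Gstm3, Gstm7, Gstt1, Sult1a1, Sult1c2, Ugt1a1 and Ugt1a7c. No gene passed in opposite directions in different genotypes, and 14 passed in none. Sult2b1 had log2 fold changes of -1.08 ± 0.28 in WT and -1.14 ± 0.28 in VAA, both passing, and 0.03 ± 0.28 in KO. Sult1a1 had -2.33 ± 0.30, -3.07 ± 0.31 and -1.50 ± 0.29, and Ugt2b35 had -1.28 ± 0.47, -2.70 ± 0.49 and -0.71 ± 0.46, of which only the VAA value passed for Ugt2b35. That VAA value includes VAA DSS replicate 3, the lowest library at 1.25 CPM.

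The difference between genotypes in the DSS effect was tested as an interaction, and 0 of the 37 and 0% of all genes passed for KO against WT or for VAA against WT (edgeR). Unadjusted p was under 0.05 for 5 and 4 of the 37, and DESeq2 and limma called 0 of the 37 in both. Over all genes DESeq2 called 136 and limma 9 for KO, and both called 0 for VAA. Ranked by p, Gstt1 (0.91 ± 0.32 log2) and Sult2b1 (1.12 ± 0.40) came first for KO, both with a Benjamini-Hochberg adjusted p of 0.38 in edgeR. For VAA, Gstm1 (-0.75 ± 0.32) and Gstm2 (-0.66 ± 0.29) came first, both with an adjusted p of 0.64 in edgeR.

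Under DSS, 7 of the 37 genes were higher and 2 lower in KO than in WT (edgeR, Benjamini-Hochberg adjusted p under 0.05), against 3.21% and 2.46% of all genes. The median log2 difference was 0.36 against -0.01, and for 23 of the 37 genes the 3 KO and 3 WT libraries did not overlap, as for 35.8% of all genes. The higher genes were Gstm6, Gstm7, Gstt1, Gstt3, Sult1a1, Sult2b1 and Ugt1a1, and the lower ones Gsta1 and Gsta4. These calls were near the threshold: with 1 library left out the count ran from 0 (without WT DSS replicate 2) to 12 (without VAA DSS replicate 3). It was 12 without VAA DSS replicate 2 as well. Omitting WT DSS replicate 1, KO DSS replicate 1 or KO DSS replicate 3 left 1, and omitting KO DSS replicate 2 left 2. Omitting either WT untreated library left 5, and omitting both male libraries left 3.

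Gstt1 was at 4.52 to 5.54 CPM in WT DSS and 6.82 to 13.2 in KO DSS, 2.03-fold higher in KO (log2 1.02 ± 0.21, edgeR, Benjamini-Hochberg adjusted p = 0.017, and 0.81 to 1.25 over the alternatives). Sult2b1 stood at 11.2, 9.12 and 11.4 CPM in WT, 10.7, 12.8 and 6.24 in VAA, and 27.7, 25.9 and 18.2 in KO. All KO libraries were above all others under DSS, where the untreated libraries of all genotypes had spanned 17.0 to 27.0 CPM. The KO to WT difference for Sult2b1 was 2.26-fold (log2 1.17 ± 0.26, edgeR, Benjamini-Hochberg adjusted p = 0.021).

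Gstm6 stood at 1.90, 1.99 and 3.36 CPM in WT, 0.902, 2.14 and 1.54 in VAA and 5.58, 4.50 and 6.69 in KO, and was 2.29-fold higher in KO than in WT (edgeR, Benjamini-Hochberg adjusted p = 0.04). Gstm7 was 2.2-fold higher (log2 1.14 ± 0.26) and Sult1a1 2.21-fold higher (1.15 ± 0.27). For all of these the KO libraries lay above the WT libraries without overlap. Ugt1a1 was 1.64-fold higher (0.71 ± 0.19, edgeR, Benjamini-Hochberg adjusted p = 0.0494) and lost the call under 18 of 23 alternatives. Sult1b1 (0.75 ± 0.21, adjusted p = 0.0537 in edgeR) and Sult1d1 (0.91 ± 0.26, adjusted p = 0.055) did not pass.

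Of the 3 alpha genes 2 were lower in KO and Gsta3, with a log2 difference of 0.36, did not pass. Gsta1 was 1.96-fold lower (log2 -0.97 ± 0.21, edgeR, Benjamini-Hochberg adjusted p = 0.019), with 14.9 to 20.8 CPM in KO DSS below 31.9 to 39.8 in WT DSS. In untreated colon the log2 difference of Gsta1 was -1.17 ± 0.28, with 3.43 and 4.64 CPM in KO and 8.40 and 9.69 in WT, and its Benjamini-Hochberg adjusted p was 1 in edgeR. Gsta4 was 1.77-fold lower in KO DSS (-0.82 ± 0.20), at 12.9, 13.4 and 10.9 CPM against 21.4, 27.6 and 17.2 CPM in WT.

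Between VAA and WT under DSS, 0 of the 37 genes passed in edgeR (0.00572% of all genes did), 9 had an unadjusted p under 0.05, and DESeq2 and limma called 0 of the 37. Over all genes DESeq2 called 36 and limma 1. Fold changes were below 0 for 29 of the 37, with a median of -0.21 against 0.03 for all genes. Gstt2 (-0.45 ± 0.14 log2) and Ugt2b34 (-0.66 ± 0.22) had the smallest p, each with a Benjamini-Hochberg adjusted p of 0.28 in edgeR. Without VAA DSS replicate 2, Gstm3, Ugt2b34 and Ugt2b35 were called lower in VAA, in a fit that kept VAA DSS replicate 3. Without VAA DSS replicate 3, 0 were called.

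Between KO and VAA under DSS, 16 of the 37 were higher in KO and 2 lower, against 6.01% and 9.41% of all genes, and the median was 0.59 against -0.01. This comparison shares its KO libraries with that of KO against WT, so the 2 sets of calls are not independent. All 3 theta genes and 6 of the 7 mu genes were higher, and Ugt2b34, Ugt2b35, Ugt1a1, Sult1a1, Sult1d1, Sult2b1 and Gsta3 as well. The Gsta3 call was lost in several fits with 1 library omitted, and that of Sult1d1 without KO DSS replicate 1 or VAA DSS replicate 1. The mu gene Gstm5 lost its call without KO DSS replicate 1, VAA DSS replicate 1 or VAA DSS replicate 3. Sult1a1 was 3.52-fold higher (log2 1.81 ± 0.28, edgeR, Benjamini-Hochberg adjusted p = 0.0017), Gstm6 3.64-fold (1.86 ± 0.32), Gstm3 3.78-fold (1.92 ± 0.35) and Ugt2b35 3.9-fold (1.96 ± 0.45). In a fit on the KO and VAA DSS libraries alone 3 of the 18 calls were made, and Gstm3 (adjusted p = 0.062 in edgeR) and Gstm2 (0.054), Gstm7 (0.0536) and Gstt3 (0.0504) were among those lost.

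Gsta1 was 2.1-fold lower in KO than in VAA (-1.07 ± 0.21, edgeR, Benjamini-Hochberg adjusted p = 0.0053), a call lost in that smaller fit (adjusted p = 0.062). Sult4a1, a sulfotransferase known mainly from brain, was 4.98-fold lower (-2.32 ± 0.59). This rested in part on VAA DSS replicate 3 at 6.81 CPM, where the other VAA DSS libraries had 2.23 and 1.91. Sult4a1 was not called without that library, in which enteric neuron and glia markers were also highest. It was not called without KO DSS replicate 1, 2 or 3 either. The total without VAA DSS replicate 3 was 16 of 37 called.

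**Figure D3:**
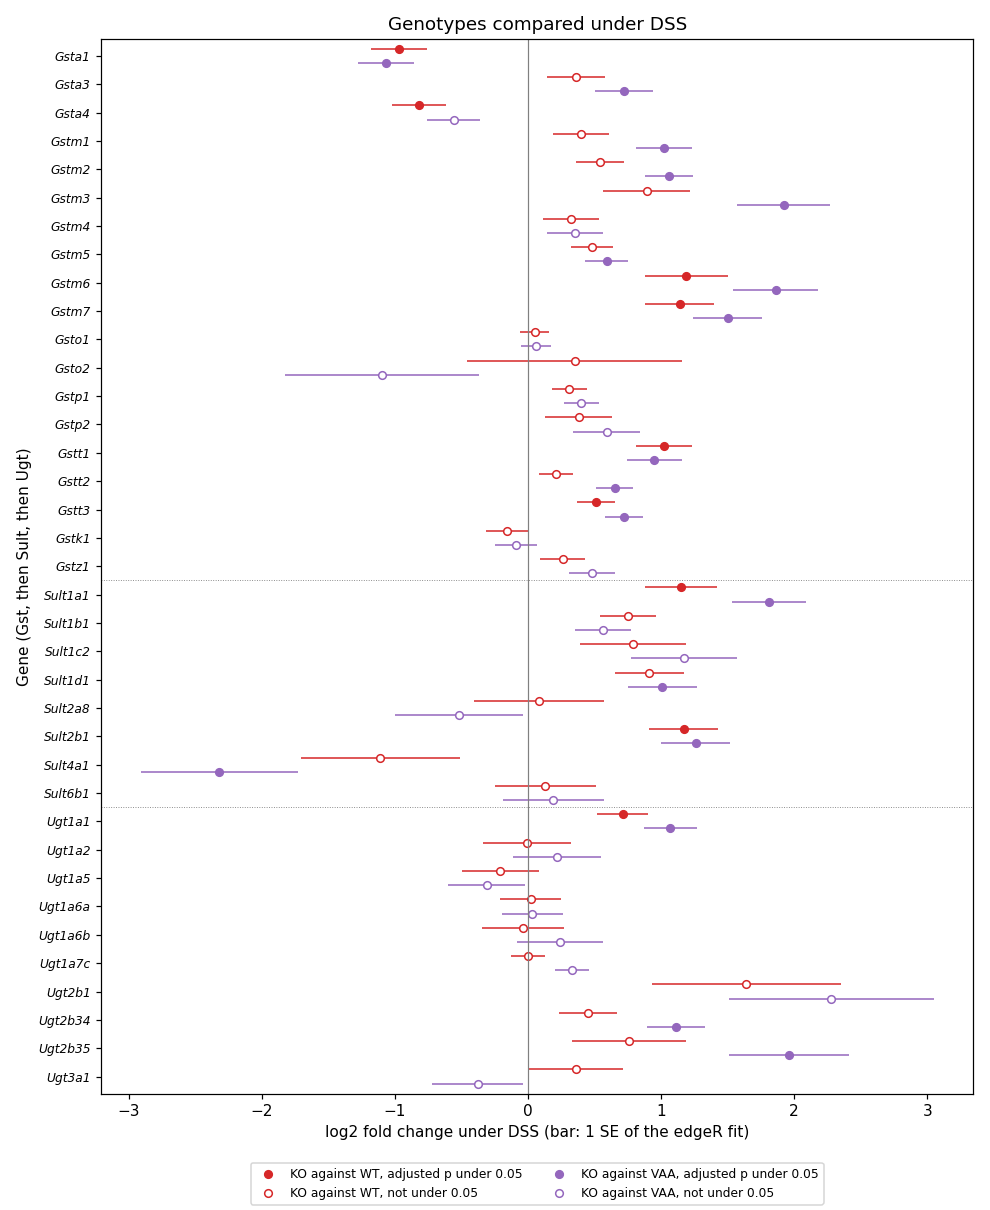
Log2 fold change of KO against WT (red) and KO against VAA (purple) under DSS for each of the 37 genes, with a bar of 1 SE of the edgeR fit; filled points have an adjusted p under 0.05. Most points lie to the right of 0, whereas Gsta1, Gsta4 and Sult4a1 lie to the left in both comparisons, which share the KO libraries.

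In untreated colon 0 of the 37 genes and 0% of all genes passed in edgeR for any pair of genotypes, and DESeq2 and limma called 0 of the 37. Over all genes DESeq2 called 9 between KO and WT, 2 between VAA and WT and 1 between KO and VAA, and limma called 1 between KO and WT. Among the 37, unadjusted p was under 0.05 for 3 genes between KO and WT, 0 between VAA and WT and 1 between KO and VAA. By p, Gsta1 and Ugt1a7c came first for KO against WT, with a log2 difference of 0.37 ± 0.16 for Ugt1a7c. Gsta1 (-0.38 ± 0.27) and Gsto2 (-0.78 ± 0.82) came first for VAA against WT, and Gsta1 (-0.79 ± 0.28) and Gstm7 (0.58 ± 0.29) for KO against VAA.

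Summed over its members, each family separated the treatments differently. The 10 Ugt genes summed to 500 to 709 CPM untreated, and under DSS to 265 to 383 in WT, 196 to 267 in VAA and 384 to 425 in KO. The 8 Sult genes summed to 441 to 542 CPM untreated, and under DSS to 148 to 225 in WT, 148 to 240 in VAA and 283 to 415 in KO. The 19 Gst genes summed to 647 to 837 CPM untreated and to 562 to 652, 512 to 578 and 669 to 735 under DSS, so that KO DSS overlapped the untreated libraries. In the mu class alone, 210 to 291 CPM untreated became 86.3 to 117 in WT, 56.3 to 86.2 in VAA and 126 to 164 in KO.

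Marker sums of several cell types moved with these results. Surface colonocyte markers, 9 genes, summed to 4150 to 5200 CPM untreated and to 1720 to 3470 under DSS. For DSS 7 of them were lower and 2 higher, beside 20.0% and 22.5% of all genes. The surface colonocyte markers summed to 2030 to 3470 in KO DSS against 1720 to 2250 in WT DSS, with 1 higher and 1 lower in KO. Goblet cell markers, 8 genes, summed to 5890 to 8330 CPM in WT DSS and 12500 to 15100 in KO DSS, 5 of them higher in KO. The untreated goblet sums also differed, at 12700 to 13800 CPM in WT, 15600 to 16000 in VAA and 19900 to 20000 in KO. Leukocyte markers, 10 genes, summed to 475 to 717 CPM in WT DSS and 247 to 360 in KO DSS, 4 of them lower in KO. Epithelial markers, 10 genes, summed to 10700 to 11200 CPM in WT DSS and 13100 to 15400 in KO DSS. Of these 2 were called higher in KO, Epcam and Cdh1, in 10 and 5 of 15 fits with 1 library left out. Between KO and WT under DSS, 3.21% of all genes were higher and 2.46% lower. Smooth muscle markers, 8 genes, went from 3780 to 6730 CPM untreated to 591 to 2430 under DSS. Between KO and VAA under DSS, 6 of 8 goblet and 5 of 10 epithelial markers were higher in KO. In the same comparison 7 of 8 fibroblast, 7 of 8 enteric neuron and glia, 5 of 8 endothelial and 5 of 10 leukocyte markers were lower. Of all genes 6.01% were higher and 9.41% lower there. In VAA DSS the marker lists summed to 5250 to 7020 CPM for goblet, 9620 to 11500 for epithelial, 1300 to 3340 for fibroblast and 35.0 to 185 for neuron and glia markers. In KO DSS the fibroblast sum was 803 to 1200 CPM and the neuron and glia sum 12.5 to 19.5. The part of these cell types in the differences was not tested.

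Each sum was also set against the epithelial marker sum of the same library. Per 1000 CPM of epithelial markers, the Ugt sum was 49.5 to 62.5 CPM untreated, 24.4 to 34.2 in WT DSS, 20.4 to 24.9 in VAA DSS and 26.9 to 30.4 in KO DSS, so KO and WT overlapped. The mu sum was 20.8 to 25.3 untreated, and 8.10 to 10.4 in WT DSS overlapped 8.13 to 11.7 in KO DSS. The Gst sum was 61.2 to 70.8 untreated, 51.7 to 58.2 in WT DSS and 46.7 to 52.6 in KO DSS, again with overlap between WT and KO. The Sult sum was 42.0 to 49.0 untreated, 13.9 to 20.1 in WT DSS and 21.5 to 26.8 in KO DSS, without overlap. DSS libraries of every genotype lay below the untreated ones on this scale for all 4 sums.

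**Figure D4:**
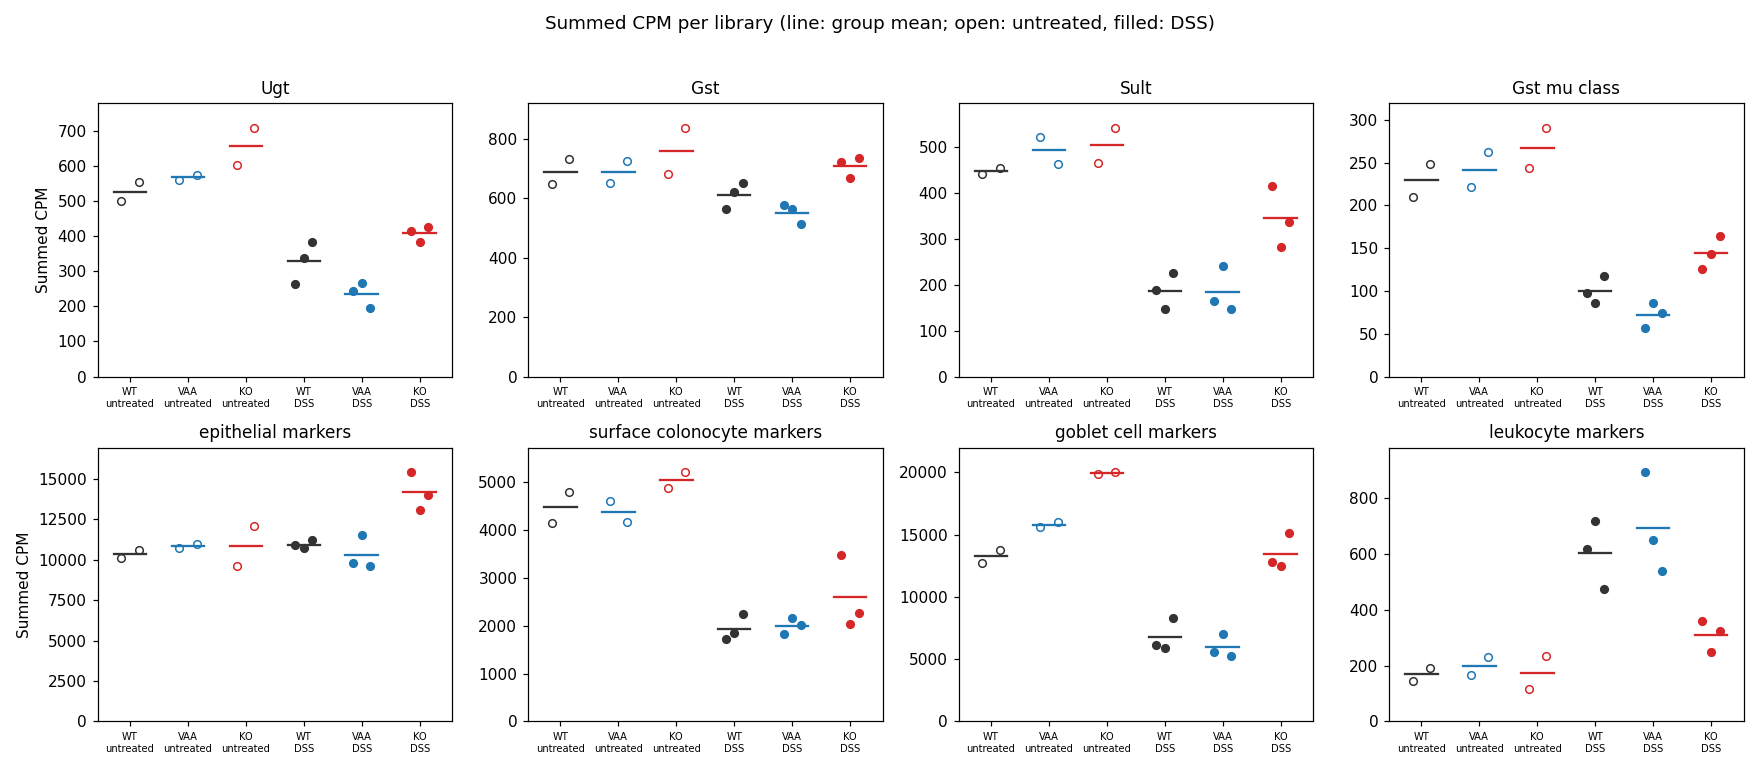
Summed CPM of each enzyme family and of marker lists in each library by genotype and treatment, on linear axes from 0. The Ugt and Sult sums are lower in DSS than in untreated libraries and higher in KO DSS than in WT DSS, where the epithelial and goblet marker sums are higher as well.

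Genes that feed conjugation were read alongside. Their counts under DSS are read against the 22.5% of all genes called higher and 20.0% called lower. Of 12 UDP-glucuronic acid and PAPS supply genes 2 were higher and 3 lower, which is near those shares. The sulfate transporter Slc26a2 fell by 1.89 ± 0.12 on the log2 scale and the PAPS synthase Papss1 by 0.90 ± 0.07. Ugdh, which makes UDP-glucuronic acid, fell by 0.90 ± 0.15, whereas Slc35d1, 1 of the 2 higher genes, rose by 0.70 ± 0.06. In KO DSS, Papss1 was 0.71 ± 0.12 higher than in WT and Slc26a2 0.79 ± 0.19 higher (edgeR, Benjamini-Hochberg adjusted p = 0.0074 and 0.032). The Papss1 call held with each of the 15 libraries left out in turn, and that of Slc26a2 in 10 of 15. In that comparison 2 of the 12 were higher, 0 lower and 10 not called, beside 3.21% of all genes higher and 2.46% lower.

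Of 16 genes of glutathione synthesis, recycling and breakdown 10 were higher and 3 lower, with a median log2 fold change of 0.45 against 0.01 for all genes, beside 22.5% and 20.0% of all genes. The cystine carrier Slc7a11 rose by 1.32 ± 0.12 on the log2 scale, glutathione reductase Gsr by 1.19 ± 0.13, and Gclm, the modifier subunit of glutathione synthesis, by 0.64 ± 0.11. Glutathione peroxidases and membrane glutathione transferases had 4 higher and 1 lower of 13, of which the higher share is near that of all genes. Gpx2, the epithelial glutathione peroxidase, went from 98.7 to 140 CPM untreated to 356 to 1080 CPM under DSS and rose by 2.36 ± 0.19. Of 23 genes of NRF2-regulated oxidant defence 13 were higher and 4 lower. The higher ones included Txnrd1 (1.11 ± 0.08), Pgd (1.24 ± 0.10) and Hmox1 (2.44 ± 0.19), which degrades heme. Between KO and WT under DSS most of these genes did not pass. Of the glutathione list 1 was higher, 2 lower and 13 not called (median log2 difference -0.5). Of the peroxidase and membrane transferase list 0 were higher, 3 lower and 10 not called (median -0.34). In the NRF2 list 1 was lower and 22 not called (median -0.09). Over all genes 3.21% were higher and 2.46% lower, with a median of -0.01. Slc7a11 and Hmox1 were lower, with log2 differences of -1.44 ± 0.18 and -1.89 ± 0.26 (edgeR, Benjamini-Hochberg adjusted p = 0.0019 and 0.0031), and both calls held in all 15 left-out fits.

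Hydrolases, efflux carriers and other conjugating enzymes are read against the same 20.0% lower and 22.5% higher of all genes. Of 10 hydrolases 5 were lower and 1 higher. This list holds carboxylesterases as well as enzymes that split conjugates, so its count is not one of deconjugation alone. The carboxylesterase Ces2a fell by 2.46 ± 0.17 on the log2 scale, and Gusb, which splits glucuronides, rose by 1.14 ± 0.09. Of 12 efflux transporters tested 5 were lower and 2 higher. Abcb1a, the drug efflux pump P-glycoprotein, went from 672 to 1040 CPM to 52.3 to 186 CPM and fell by 2.87 ± 0.18. Slc51b, which exports bile acids, rose by 2.49 ± 0.15. Other conjugating and methylating enzymes had 4 lower and 0 higher of 10, Mettl7b among them (log2 fold change -2.33 ± 0.28).

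Of 23 sensors and colon transcription factors 11 were lower and 4 higher under DSS, beside 20.0% and 22.5% of all genes. The vitamin D receptor Vdr fell by 1.26 ± 0.11 on the log2 scale and the pregnane X receptor Nr1i2 by 0.60 ± 0.07, while the bile acid receptor Nr1h4 rose by 0.80 ± 0.10. In KO DSS, Vdr was 1.21 ± 0.17 higher than in WT DSS (edgeR, Benjamini-Hochberg adjusted p = 0.0034), in all 15 left-out fits. Nr1i2 was 0.44 ± 0.12 higher, in 4 of 15. In that comparison 2 of the 23 were higher, 0 lower and 21 not called, beside 3.21% of all genes higher and 2.46% lower.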

How the data were processed

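Total RNA of 15 mouse colon libraries was sequenced in paired 76-base reads with the TruSeq Total RNA kit, per the labels' protocols. Estimated counts of each gene symbol were deposited by the authors, who used kallisto 0.46 and mm10, per the submitters' processing notes. Which transcript models were used, and how symbols were formed from them, is not given in these sources. They also deposited log2 CPM for 17531 of 32544 symbols; recomputing these values from the counts with a prior count of 2 gave differences of at most 0.018. Totals ran from 10.6 to 17.5 M counts, and this depth limits precision for the genes under about 1 CPM. No column lacked a sample.

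Estimated counts as deposited were whole numbers and needed no rounding. They were tested with edgeR 4.0.16 in R 4.3.3 (filterByExpr, TMM scaling, quasi-likelihood test) on all 6 groups in 1 fit with 9 residual degrees of freedom, and p-values were adjusted by Benjamini-Hochberg over the 17477 genes that passed the filter. CPM values use the TMM-scaled totals, and CPM per kb divides by the length of the GENCODE vM21 transcript with the longest coding sequence. DSS averaged over genotypes is the mean of the 3 within-genotype effects. Standard errors are the log2 fold change divided by the square root of the F value. Comparisons under DSS share libraries, as do the DSS effects and the genotype comparisons, and each is given on its own. DESeq2 1.42.0, limma 3.58.1 on the deposited log2 values, other scaling, no filter, smaller fits, sex as a covariate, a replicate block and the omission of single libraries were alternatives. The fit was tested on simulated data with known changes. No 2 libraries of a group agreed within sampling noise.

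The members and gene lists were chosen with earlier results of these data known. The genes described in most detail are the 5 most abundant of each family, the 5 most changed of each family and direction under DSS, and up to 8 called by smallest p in each genotype comparison, with up to 4 called genes of each pathway list; every member is accounted for. Sequences are from RefSeq (promoter windows, GRCm38.p6) and GENCODE vM21 (coding). Coding identity stands in for protein identity.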

Additional observations from a re-analysis of the deposited data

Results flagged for a closer look

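Among symbols of these families outside the log2 CPM table, 3 had, in 1 genotype, more counts in every DSS library than in either untreated library and at least 10 counts over the DSS libraries. Sult1c1 summed to 14 counts over the 3 WT DSS libraries (2, 8 and 4), against 1 and 1 in untreated WT. Sult2a7 summed to 15 over the VAA DSS libraries (4, 4 and 7), against 3 and 3 in untreated VAA. Ugt8a, which makes galactosylceramide of myelin, summed to 14 over the VAA DSS libraries (5, 5 and 4), against 3 and 1 in untreated VAA, and reached 8 in an untreated library of each of WT and KO. These are single-digit counts per library with no test, and the DSS sums are over 3 libraries against 2. Sult5a1 had 9, 3 and 26 counts in VAA DSS against 8 and 0 in untreated VAA, which overlap.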

How the results depend on the processing

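Values below are counts of the 37 genes called. Of 46 single-gene results, 31 kept direction and call in every alternative. Of the 1040 alternatives of the 46, 962 left the call as it was, 77 lost it, 1 gained it (Ugt2b34, VAA against WT under DSS) and 0 changed direction. The 46 include results not called in the main fit (VAA against WT, the untreated pairs and the interactions), which count as kept when they stay uncalled. Of the averaged DSS results among the 46, only Gsta3 lost its call in any alternative. Outside the 46, Gstz1 and Ugt1a2 lost their averaged calls in most fits with 1 library omitted, and Ugt2b1 in several. Each named KO against WT result under DSS lost it in some, from 4 of 23 for Gstt1 to 18 of 23 for Ugt1a1. For DSS in WT (17 called) sex as a covariate gave 11, omitting both male libraries 9, and omitting 1 library 10 to 18. For DSS in VAA (20) the fit on only the groups compared gave 11. For DSS in KO (12) that fit gave 19, sex as a covariate 7, no male libraries 2, and omitting 1 library 4 to 17. For KO against WT under DSS (9) they were 15 on only the groups compared, 3 without males and 0 to 12 with 1 library omitted. For VAA against WT under DSS (0) omitting 1 library gave 0 to 3. For KO against VAA under DSS (18) only the groups compared gave 3. The cause of these changes was not tested, beyond the fewer libraries in the smaller fits. Averaged DSS kept 22 to 31 calls with 1 library omitted; its fit on only the groups compared was not run, since all groups enter it.

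With a replicate block the counts were 27 for averaged DSS, 17 in WT, 21 in VAA, 12 in KO, 7 for KO against WT, 0 for VAA against WT and 19 for KO against VAA under DSS. Replicate numbers did not pair the libraries: over 33 same-numbered pairs the correlation of deviations ran from -0.16 to 0.31, with 8 over 0.1, and 7 of 15 libraries were closest to their own number. On the deposited log2 values limma moved the median of all genes to -0.13 for DSS in KO and -0.12 for KO against WT under DSS.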
